A study of Mus musculus with 1536 samples.

Results

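Purine and adenosine receptor genes were followed in single serotonin neurons of the mouse raphe. The genes were the 8 receptors P2ry1, P2rx2, P2rx4, P2rx5, P2rx6, Adora1, Adora2a and Adora2b, taken by name from a table of 53263 genes in 999 cells. Each was described by the cells in which it was read, its level in those cells, and its relation to dissection, plate and 4 kinds of marker, which were Rorb, Zeb2, Slc17a8 and the Gad genes. All 8 symbols were in the table and in the mouse annotation, and 7 of the 8 had a read in at least 3 cells, the limit for entering a comparison. Adora2a, read in 1 cell, did not.

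The cells came from C57BL/6J mice 40 to 45 days old in which Sert-Cre, active wherever the serotonin transporter gene is or has been on, switched on the tdTomato reporter Ai14. Red cells were sorted singly into wells and sequenced by Smart-seq2, a full-length method without molecular identifiers. The pDR group (290 cells on 5 plates) was dissected from the principal dorsal raphe (DR) without its caudal extension, and the all DR group (709 cells on 11 plates) from tissue that, by the study's methods, also held the caudal DR and the median raphe. Both groups share genotype, strain and age, and the labels name no treatment. The study's reagent list includes tetrodotoxin, kynurenic acid, D-AP5 and actinomycin D. The labels name no animal, so each dissection counted as 1 sample. No p-value was computed, and the number of plates on each side of 0 is given in place of a test. The dissections were made in separate sets of experiments and no plate holds cells of both, so experiment, plate and dissection cannot be told apart.

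Median depth was 755925.5 reads a cell in pDR and 869546 in all DR, within a range of 96834 to 2780443. Defining markers of serotonin neurons were read in nearly every cell. Tph2, the enzyme of serotonin synthesis in the brain, and Fev, a transcription factor of serotonin neurons, were read in 999 of 999 cells. Slc6a4, the serotonin transporter, was read in 997 cells and Slc18a2, the vesicular monoamine transporter, in 998. The study describes the cells it kept as Tph2-positive, so Tph2 is no independent check of them.

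ATP and adenosine act outside the cell as transmitters. P2X receptors are cation channels of 3 subunits opened by ATP, P2Y1 is a Gq-coupled receptor for ADP, and adenosine, formed when ATP is broken down, acts on the Gi-coupled A1 receptor, encoded by Adora1, and on the Gs-coupled receptors encoded by Adora2a and Adora2b. In neurons P2X channels pass calcium and depolarize the cell, while A1 receptors commonly reduce excitability and transmitter release.

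The promoters of P2rx4 and P2ry1 are shown because these genes were the most evenly and the most unevenly detected of the well-read members. P2rx4 was read in most cells of every plate, and P2ry1 in 68.8% of 1 small set of cells and in at most 21.3% of each of the other 8 marker-gated sets taken over both dissections. Each window runs from 250 bases before to 50 after the RefSeq start on GRCm38.p6, 5′ to 3′ on the plus strand, and capitals mark the letters GGGCGG or their reverse complement CCGCCC, known as the GC box. The P2rx4 window is chr5:122707294-122707593 and the P2ry1 window chr3:61002535-61002834.
P2rx4: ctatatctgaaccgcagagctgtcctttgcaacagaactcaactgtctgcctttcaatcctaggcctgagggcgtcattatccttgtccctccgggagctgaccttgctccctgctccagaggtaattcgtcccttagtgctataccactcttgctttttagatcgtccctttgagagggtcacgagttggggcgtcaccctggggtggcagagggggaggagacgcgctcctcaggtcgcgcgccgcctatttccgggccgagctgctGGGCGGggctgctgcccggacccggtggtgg
P2ry1: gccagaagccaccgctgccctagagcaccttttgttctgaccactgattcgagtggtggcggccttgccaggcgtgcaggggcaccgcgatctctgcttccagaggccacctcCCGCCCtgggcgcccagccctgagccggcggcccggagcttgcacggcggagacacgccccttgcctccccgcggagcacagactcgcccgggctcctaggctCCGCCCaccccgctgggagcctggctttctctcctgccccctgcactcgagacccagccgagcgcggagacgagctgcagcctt
The P2ry1 window is 70.7% G or C with 25 CpG and holds 2 GC boxes. The P2rx4 window is 60.3% G or C with 18 CpG and holds 1. The same letters, on either strand, are in 35.7% of the 32851 promoter windows of this length.

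P2rx4 was the broadly detected member. This P2X4 subunit gene (GRCm38 chr5:122707544-122729738, plus strand) had a read in 672 of 999 cells, 67.3% (95% Clopper-Pearson interval 64.3 to 70.2; all such intervals cover counting error only). Its median level in cells with a read was 15.7 CPM (its reads divided by the cell total and put on a common scale), and 558 cells held at least 5 reads. The share was 74.8% in pDR and 64.2% in all DR. The 5 pDR plates lay at 53.6, 63.4, 72.1, 79.6 and 83.5%, and the 11 all DR plates between 55.6 and 70.3% with a median of 64.9%. The plates of the dissections overlap, with the lowest and the highest plate both in pDR. Mean P2rx4 was 17.1 CPM in pDR and 12.1 CPM in all DR.

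P2rx2 was the member that separated the dissections. This P2X2 subunit gene (chr5:110339812-110343212, minus strand) was read in 12 of 290 pDR cells, 4.14% (interval 2.16 to 7.12), against 145 of 709 all DR cells, 20.5% (17.5 to 23.6). The pDR plates gave 0, 3.23, 4.65, 4.88 and 5.88% of cells, and the all DR plates from 13.0 to 26.0% with a median of 21.1%. No pDR plate reached the lowest all DR plate. Mean level was 0.572 CPM in pDR and 4.22 CPM in all DR, a log2 contrast of -1.73, where a contrast is the log2 of mean CPM plus 1 in the first set over that in the second. Among cells with a read the median was 13.1 CPM in pDR and 18.0 CPM in all DR, and thinning to 250000 reads, which left out 1 pDR and 8 all DR cells of lower depth, gave shares of 3.81% and 19.1%.

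A contrast of at least 1 or at most -1, a 2-fold difference, was the call used for all genes. Of the 25522 genes with a read in at least 3 cells, 1.54% were called higher in pDR and 0.901% lower. Of the 7 members entered, 0 were called higher and 1, P2rx2, lower. The median of the 7 was -0.01, against 0.01 over all genes. P2ry1 stood at -0.77, P2rx4 at 0.47, P2rx5 at -0.28, Adora1 at 0.30, Adora2b at 0.10 and P2rx6 at -0.01. The P2rx2 contrast was -0.73 with a pseudocount of 5 CPM in place of 1, which ends its call.

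**Figure D1:**
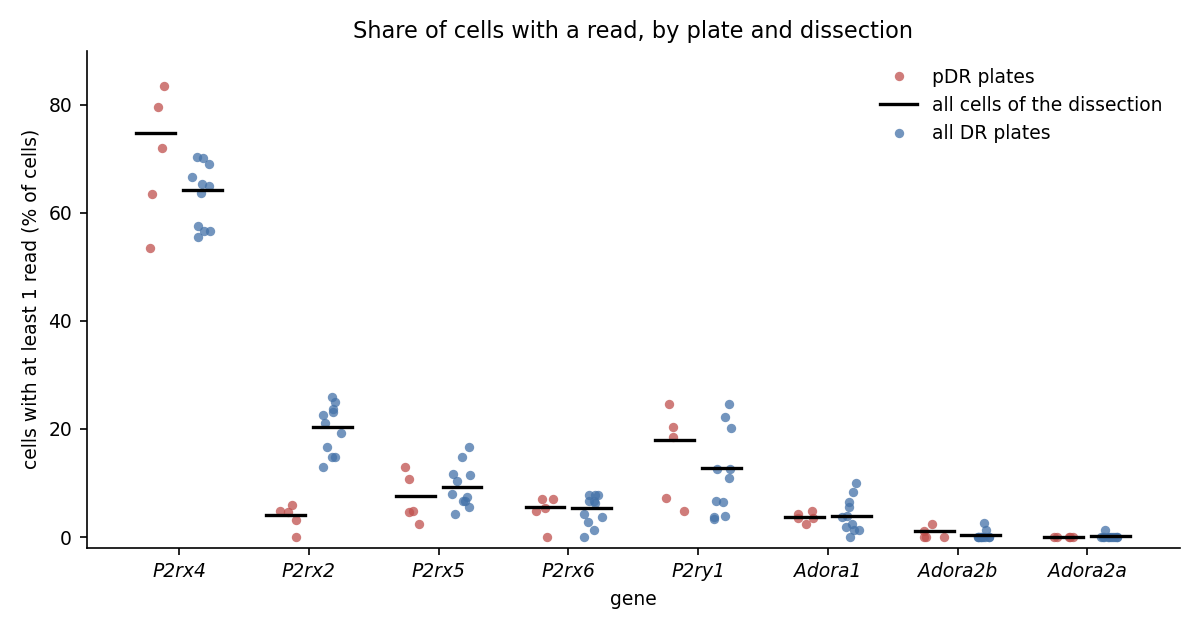
Share of cells with at least 1 read of each gene (y axis, percent of cells) by gene (x axis). Points are plates, 5 of pDR in red and 11 of all DR in blue, and black bars are the share over all cells of the dissection; for P2rx2 every pDR plate lies at or under 5.88% and every all DR plate at or over 13.0%, while the plates of the other genes overlap.

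P2rx5 and P2rx6, the other P2X subunit genes, were read less often. P2rx5 (chr11:73160421-73172685, plus strand) was read in 87 cells, 8.71%, with a median of 11.3 CPM in those cells. Its shares were 7.59% in pDR and 9.17% in all DR, on plates from 2.33 to 12.9% and from 4.23 to 16.7%, which overlap. P2rx6 (chr16:17561885-17577800, plus strand) was read in 54 cells, but at a median of 1.66 CPM, with 95 reads in all and at least 5 reads in 4 cells. Its exons share 554 bases, 13.9% of their length, with Slc7a4 on the other strand, a transporter-family gene read in 974 cells and in all 54 cells with P2rx6. The counting did not use strand, so reads in the shared bases cannot be assigned to either gene, and P2rx6 values are uncertain.

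P2ry1 (chr3:61002795-61008982, plus strand) was read in 143 cells, 14.3% (12.2 to 16.6), with a median of 14.0 CPM and at least 5 reads in 111 cells. The share was 17.9% in pDR, on plates at 4.88, 7.14, 18.6, 20.4 and 24.7%, and 12.8% in all DR, on plates from 3.33 to 24.7%. The plates overlapped, and share and level pointed opposite ways: mean P2ry1 was 2.30 CPM in pDR and 4.61 CPM in all DR. The antisense gene Gm37035 covers 992 bases, 23.1%, of the P2ry1 exons. It had reads in 40 cells, 33 of them with P2ry1, at a mean of 0.258 CPM against 3.94 CPM for P2ry1, and the 2 cannot be told apart in the shared bases.

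Adenosine receptors were sparse. Adora1, the A1 receptor gene (chr1:134199223-134235431, minus strand), was read in 38 cells, 3.80% (2.71 to 5.18), at 3.79% in pDR and 3.81% in all DR. Of these cells, 24 held at least 5 reads, and the median was 9.17 CPM. Its mean in pDR, 0.843 CPM, rests largely on 1 cell at 144.6 CPM: the plate of that cell averaged 4.13 CPM and the other pDR plates 0.020 to 0.425 CPM. Adora1 exons share 1162 bases, 20.1% of their length, with Mybph on the other strand, which was read in 0 cells. Reads in those shared bases cannot be assigned to either gene. Adora2b (chr11:62248984-62266453, plus strand) was read in 6 cells and Adora2a (chr10:75316877-75334784, plus strand) in 1, with 11 reads at 12.7 CPM. In pDR Adora2a had a read in 0 of 290 cells, which allows a share of up to 1.03% by the limit of 3 cells (1.26% by Clopper-Pearson). For scale, C1qa and Cx3cr1, which define microglia, and Cldn5, which defines endothelial cells, were each read in 2 cells of this sort.

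Levels between genes were compared as mean CPM per kilobase of exon over all cells. The order was P2rx4 (1.93), P2rx2 (1.23), P2ry1 (0.917), P2rx5 (0.494), Adora1 (0.103), P2rx6 (0.029), Adora2b (0.023) and Adora2a (0.0041). P2rx4 was above P2rx2 on 10 of 16 plates, P2rx2 above P2ry1 on 10 and P2ry1 above P2rx5 on 11, and the plate ranges of these neighbours overlap. P2rx5 was above Adora1 on 15 of 16 plates, Adora1 above P2rx6 on 12, and P2rx6 above Adora2b on 12.

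A cell held reads of 0 to 4 members. There were 218 cells with 0, 473 with 1, 248 with 2, 51 with 3 and 9 with 4. P2rx4 was read in 114 of 143 cells with P2ry1, 79.7% (72.2 to 86.0), against 65.2% (61.9 to 68.4) of cells without P2ry1, at median depths of 818632 and 828940 reads. Both genes were read in larger shares of pDR (74.8 and 17.9%) than of all DR (64.2 and 12.8%). No pair was split by dissection or plate, so pairing within cells cannot be told from such differences. P2rx2 and P2rx5 were read together in 21 cells, so that P2rx5 was in 13.4% (8.47 to 19.7) of cells with P2rx2 and in 7.84% (6.11 to 9.86) of the others, and these intervals overlap. P2rx2 was in 15.4% of cells with P2ry1 and in 15.8% of cells without. Of up to 8087 genes with a mean over 10 CPM, 0 had a Pearson r above 0.4 with any member over the 999 cells. The highest r, 0.30, was with P2rx2, and the lowest, -0.35, with P2ry1. Within all DR, 3 genes, named here after their values were seen, lay under -0.4 with P2ry1. They were Scn9a (-0.44), Kcnk9 (-0.44) and Elavl2 (-0.41). All genes of a cell share its depth.

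Rorb, a nuclear receptor of the retinoid-related orphan family, was high (100 CPM or more) in 125 all DR cells, which were compared with the other 584. P2rx2 was read in 54 of the 125, 43.2%, and in 91 of the 584, 15.6%, at means of 8.04 and 3.40 CPM. Its contrast was 1.04, and 9 of 11 plates were above 0, from -0.54 to 2.42. In all, 0.455% of genes were called higher in Rorb-high cells and 0.694% lower. Of the 7 members, 1 was called higher, P2rx2, and 0 lower, at a median of -0.04 (all genes -0.01). P2rx5 was read in 13.6% of Rorb-high cells and 8.22% of the others (contrast 0.40, 6 of 11 plates above 0), P2ry1 in 12.0 and 13.0% (-0.68, 9 of 11 plates below 0) and P2rx4 in 60.8 and 64.9% (-0.28). The P2rx2 call sits at the threshold: the contrast was 0.84 without plate SER50, 0.96 without SER51, 0.996 without SER55, 0.89 after thinning and 0.63 with a pseudocount of 5 CPM. With Rorb-high drawn at 50 CPM it was 0.96 and at 200 CPM 0.77, so that the call also ends at either threshold. P2ry1, not called at 100 CPM, was past 2-fold lower with Rorb-high drawn at 50 CPM (-1.13), at 200 CPM (-1.25) or at 1 read (-1.61), and without plate SER60 (-1.11). Over the alternatives other than single plates, P2rx5 ran from 0.16 to 1.09. Adora1, at -0.47 as reported, ran from -1.51 to 0.22. Each thus passed 2-fold at its extreme.

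The share of cells with P2rx2 differed between classes of Rorb level. It was 11.1% (7.62 to 15.5) of the 270 cells with 0 reads of Rorb, 19.7% (14.5 to 25.8) of the 208 cells with a read but under 50 CPM, and 18.9% (11.9 to 27.6) of the 106 cells from 50 to under 100 CPM. It was 42.7% (33.0 to 52.8) of the 103 cells from 100 to under 200 CPM and 45.5% (24.4 to 67.8) of the 22 cells at 200 CPM or more. The 3 classes under 100 CPM overlap one another in their intervals, as do the 2 above it. The interval from 100 to under 200 CPM lies clear of all 3 below in counting error alone. Spread between plates is not in these intervals, and the classes were not split by plate. Over both dissections, P2rx2 in Rorb-high cells ran from 0 to 77.8% on the 13 plates with at least 3 such cells. P2rx4, in contrast, was at 58.3 to 72.7% in all 5 classes.

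Irx2, an Iroquois homeobox gene, marked other cells with P2rx2. In all DR, P2rx2 was read in 45 of 103 Rorb-high cells without Irx2 at 10 CPM, 43.7% (33.9 to 53.8), and in 38 of 114 cells with Irx2 that were not Rorb-high, 33.3% (24.8 to 42.8). It was read in 9 of 22 cells with both, 40.9%, and in 53 of 470 cells with neither, 11.3% (8.56 to 14.5). Mean P2rx2 was 7.75, 6.82, 9.36 and 2.57 CPM in these classes. Taking Irx2 cells out of the comparison group gave a Rorb contrast of 1.34. Without Rorb-high and Irx2 cells in either dissection, the pDR contrast of P2rx2 was -1.21, so that it stayed past 2-fold, and that of P2ry1 became -1.07.

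Zeb2, a zinc-finger transcription factor, had a read in 147 all DR cells and none in 562. P2rx2 was read in 10 of the 147, 6.80%, and in 135 of the 562, 24.0%. Means were 0.910 and 5.08 CPM, a contrast of -1.67, and all 11 plates were below 0 (-2.81 to -0.33). P2ry1 went the other way in level but hardly in share: 15.6% of Zeb2-positive and 12.1% of Zeb2-negative cells, at means of 13.5 and 2.27 CPM, a contrast of 2.15 with 8 of 11 plates above 0. Among all genes 1.66% were called higher and 2.9% lower, and among the 7 members 1 was called higher and 1 lower, at a median of 0.14 (all genes 0.00). P2rx4 was read in 51.0 and 67.6% of cells (-0.55, 9 of 11 plates below 0). With a pseudocount of 5 CPM the P2rx2 contrast was -0.77 and ended its call.

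The Zeb2 cells were then divided by Piezo2, which encodes a mechanically gated channel; this division was made after the data had been seen. Zeb2 at 10 CPM or more went with Piezo2 at 10 CPM or more in 101 cells and with 0 reads of Piezo2 in 32 cells, all from the all DR dissection and on 11 and 9 plates. P2ry1 was read in 22 of the 32 cells without Piezo2, 68.8% (50.0 to 83.9), at a median of 74.3 CPM (9.39 to 189.1), and in 0 of the 101 cells with Piezo2, which allows a share of up to 2.97% by the limit of 3 cells (3.59% is the upper end of the Clopper-Pearson interval). The 32 cells held 1739 reads of P2ry1. Median depths were 766038.5 and 907113 reads, deeper in the set without a read.

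By plate, P2ry1 was read in 6 of 6 such cells on SER60, 4 of 4 on SER52, 3 of 3 on SER63, 3 of 4 on SER50, 2 of 3 on SER51, 2 of 7 on SER48, 1 of 3 on SER64, 1 of 1 on SER57 and 0 of 1 on SER55. All 9 plates but SER55 thus held a cell of this kind with P2ry1. The 32 cells are 3.20% of all cells and 15.4% of those with P2ry1, and they carried 50.3% of its summed CPM. In the 677 other all DR cells P2ry1 was read in 10.2% (8.02 to 12.7) at a mean of 1.90 CPM. Without the 32 cells the Zeb2 contrast of P2ry1 was -1.53, the opposite sign, and its pDR contrast was 0.18. Of the 32 cells, 3 were Rorb-high, and the Rorb contrast of P2ry1 was not computed without them. Mean P2ry1 in all 125 Rorb-high cells was 2.74 CPM, so its lower value with Rorb cannot be read apart from the 32 cells.

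In the same division P2rx2 was read in 6 of 32 cells without Piezo2, 18.8% (7.21 to 36.4), and in 1 of 101 with Piezo2, 0.990% (0.025 to 5.39). P2rx4 was read in 65.6% (46.8 to 81.4) and 43.6% (33.7 to 53.8), and Adora1 in 2 and 1 cells. Of all genes, 3.82% were called higher in the cells without Piezo2 and 2.34% lower, and of the 7 members 3 were higher, P2ry1, P2rx2 and Adora1, and 0 lower. The P2rx2 contrast, 1.61, rests on 6 and 1 cells, with 4 of 6 plates above 0 (-1.80 to 3.42), and was 0.54 with a pseudocount of 5 CPM, which ends its call. The Adora1 value rests on 1 cell at 60.5 CPM, and its contrast was 0.03 without the plate of that cell, SER50, and 0.47 with a pseudocount of 5 CPM. P2rx4, at 0.85, was past 2-fold higher without plate SER55 (1.09), and P2rx6, at -0.27, past 2-fold lower with a pseudocount of 0.1 CPM (-1.44). P2rx5 and P2rx6 were read more often with Piezo2, in 12.9 against 6.25% and in 8.91 against 3.12% of cells, with overlapping intervals.

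**Figure D2:**
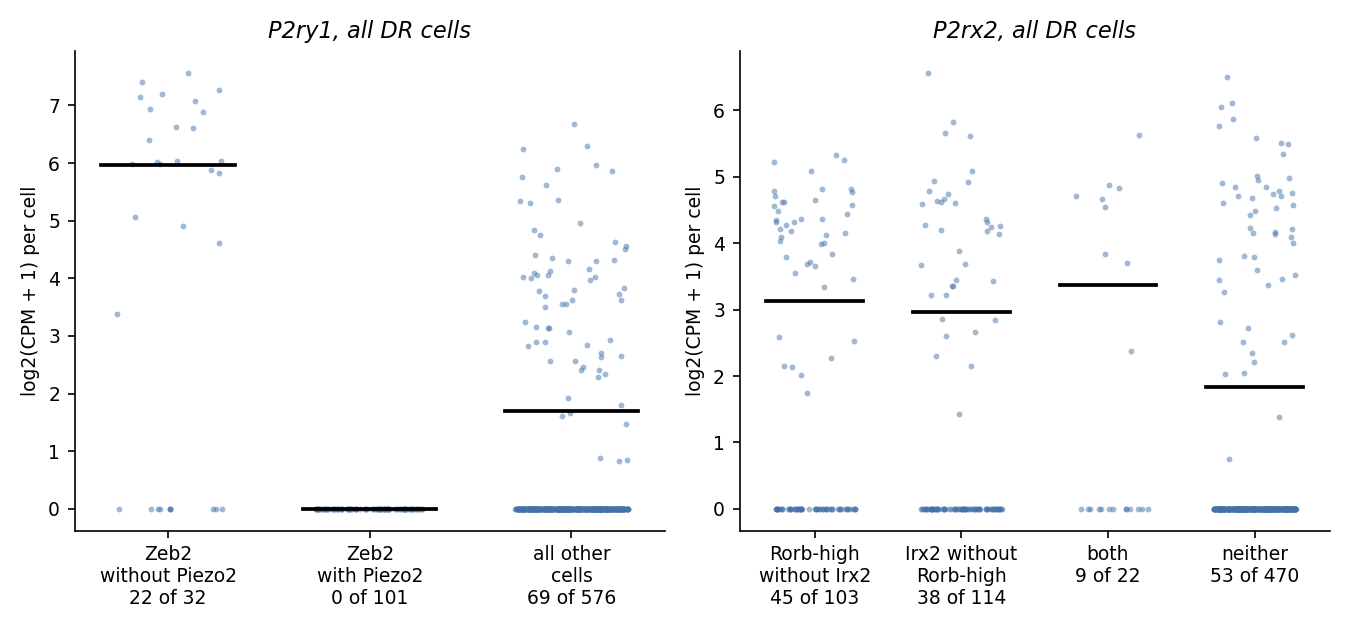
Level in each all DR cell as log2 of CPM plus 1 (y axis), P2ry1 by Zeb2 and Piezo2 on the left and P2rx2 by Rorb and Irx2 on the right. Points are cells, black bars are the log2 of mean CPM plus 1, and the counts under each class are cells with a read of all cells; P2ry1 is at 0 in all 101 Zeb2 cells with Piezo2, and P2rx2 is read in 45 of 103, 38 of 114, 9 of 22 and 53 of 470 cells.

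Slc17a8 encodes VGLUT3, the vesicular glutamate transporter of serotonin neurons, and was read in 518 all DR and 131 pDR cells. In all DR, P2ry1 had a mean of 5.51 CPM with Slc17a8 and 2.14 CPM without, a contrast of 1.05 with 9 of 11 plates above 0, although its shares were 13.7 and 10.5%. Here 0.274% of genes were called higher and 0.65% lower, and 1 of the 7 members, P2ry1, was higher and 0 lower, at a median of 0.45 (all genes 0.00). The contrast was 0.85 without plate SER52 and 0.92 without SER63, each of which ends the call. It also ended without SER48, with plates weighted equally, after thinning and with a pseudocount of 5 CPM. The call rests on the 32 Zeb2 cells without Piezo2, of which 26 had Slc17a8 at 10 CPM and no Gad. Without them P2ry1 was read in 10.1% of cells with and 10.5% of cells without Slc17a8, at a contrast of -0.17. In pDR, which holds 0 of the 32, the contrast was -0.71 and all 5 plates were below 0, with P2ry1 in 11.5% (15 of 131) and 23.3% (37 of 159) of cells.

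P2rx5 was read more often beside Slc17a8 in all DR, in 11.2% of cells (8.61 to 14.2) with and 3.66% (1.49 to 7.41) without it (58 of 518 and 7 of 191 cells; contrast 0.69, 8 of 11 plates above 0). In pDR the shares were 9.92% (5.39 to 16.4) and 5.66% (2.62 to 10.5), 13 of 131 and 9 of 159 cells with overlapping intervals (contrast 0.92, 4 of 5 plates above 0). By transmitter class in pDR, P2rx5 was read in 13.1% of cells with Slc17a8 only, 6.62% with Gad only, 4.26% with both (2 of 47 cells) and 0 of 23 with neither, which allows up to 13.0%. In neither dissection did the P2rx5 contrast reach 2-fold as computed here. The pDR value was past 2-fold under other settings, at 1.49 without plate SER12, 1.39 with plates weighted equally, 1.08 without the 20 most abundant genes, 1.05 with positives from 10 CPM and 1.87 with a pseudocount of 0.1 CPM, and was 0.60 without SER39. The all DR value passed 2-fold only with the pseudocount of 0.1 CPM, at 1.27. P2rx2 in all DR was read in 22.8 and 14.1% of cells (contrast 0.45, 10 of 11 plates above 0), and Adora1 in 4.44 and 2.09% (0.68). In pDR 0.768% of genes were called higher and 0.721% lower with Slc17a8, and 0 of the 7 members in either direction. Adora1 there stood at 0.87, and from 0.22 to 1.19 without single plates. It was read in 6 of 131 cells with and 5 of 159 cells without Slc17a8, and the cell at 144.6 CPM had Slc17a8. P2rx4 was near even, at 64.5 and 63.4% in all DR and 76.3 and 73.6% in pDR.

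Gad1 and Gad2 encode the enzymes of GABA synthesis, and a read of either marked 164 all DR and 183 pDR cells. P2rx2 in all DR was read in 19 of 164 Gad-positive cells, 11.6%, and in 126 of 545 Gad-negative cells, 23.1%. Means were 1.83 and 4.93 CPM, a contrast of -1.07 with 10 of 11 plates below 0. The exception was plate SER52, at 1.29. Genes called higher were 0.729% and lower 0.161% of all, and of the 7 members 0 were higher and 1, P2rx2, lower. The contrast was -0.97 without plate SER51, -0.95 without SER57 and -0.54 with a pseudocount of 5 CPM, each of which ends the call. Without the cells that had a read of Zeb2 it was -1.13.

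By transmitter class in all DR, P2rx2 was read in 24.2% (20.3 to 28.6) of 429 cells with Slc17a8 only, 6.67% (2.20 to 14.9) of 75 with Gad only, 15.7% (8.88 to 25.0) of 89 with both and 19.0% (12.3 to 27.3) of 116 with neither. Cells with Slc17a8 only and with Gad only do not overlap in these intervals, which cover counting error and not spread between plates. The classes were not split by plate.

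In pDR P2rx2 was read in 7 of 183 Gad-positive and 5 of 107 Gad-negative cells. P2ry1 there was read in 20.2% of Gad-positive cells (37 of 183) and 14.0% of Gad-negative cells (15 of 107), at means of 2.85 and 1.35 CPM, a contrast of 0.71 with all 5 plates above 0 (0.42 to 1.06). In this comparison 1.22% of genes were called higher and 0.776% lower, and 0 of the 7 members in either direction. Adora1 stood at -0.80 and P2rx5 at -0.67, with 3 and 2 of 5 plates above 0. The Adora1 share went the other way, at 9 of 183 Gad-positive cells (4.92%) and 2 of 107 Gad-negative cells (1.87%). The pDR cell with Adora1 at 144.6 CPM was Gad-negative. Without single plates Adora1 ran from -1.16 to 0.18 and P2rx5 from -1.02 to -0.26. Under the other alternatives they ran from -1.57 to -0.26 and from -1.27 to -0.22. In all DR the contrast of P2ry1 was 0.00, and without the 32 Zeb2 cells lacking Piezo2 it was 1.12, with P2ry1 in 13.8% (8.82 to 20.1) of 160 and 9.09% (6.76 to 11.9) of 517 cells and 7 of 11 plates above 0. Shares of P2ry1 by transmitter class in pDR were 25.0% (18.0 to 33.1) of 136 cells with Gad only, 14.3% (7.61 to 23.6) of 84 with Slc17a8 only, 6.38% (1.34 to 17.5) of 47 with both and 13.0% (2.78 to 33.6) of 23 with neither.

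**Figure D3:**
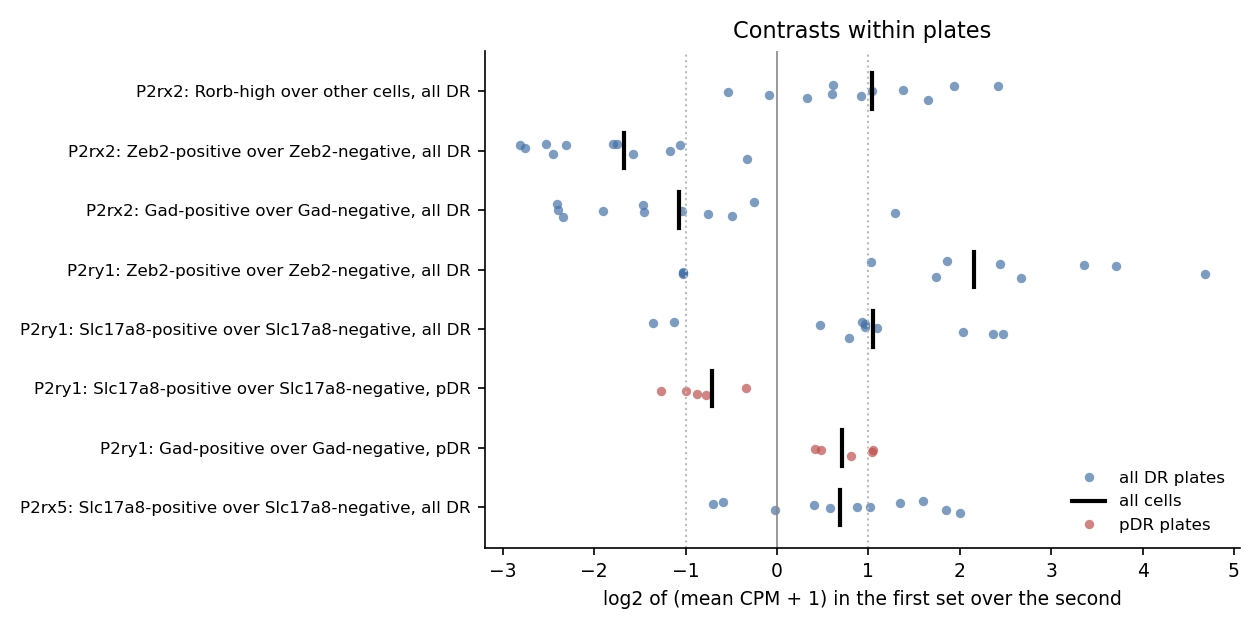
Log2 of mean CPM plus 1 in the first set over the second (x axis) for 8 gene and marker pairs (y axis). Points are plates with at least 3 cells in both sets, blue for all DR and red for pDR, black bars are the value over all cells, and dotted lines mark 2-fold; P2rx2 is below 0 on all 11 plates for Zeb2, and P2ry1 is below 0 on all 5 pDR plates for Slc17a8 and above 0 on all 5 for Gad.

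Sets of cells gated by markers at 10 CPM or more were compared over both dissections. The sets can share cells: 24 cells were both Rorb-high and Irx2-positive, and 92 of the 125 Trh cells were in the set with Gad and no Slc17a8. P2rx2 was read in 39.0% (30.9 to 47.6) of 141 Rorb-high cells, 34.0% (26.3 to 42.5) of 141 Irx2 cells and 19.1% (13.4 to 26.0) of 162 cells with Npas3 and Htr1d. It was read in 9.76% (5.68 to 15.4) of 164 cells with Crhr2 and Npy2r, 4.00% (1.31 to 9.09) of 125 Trh cells and 4.46% (2.06 to 8.29) of 202 cells with Gad and no Slc17a8. Of the 157 cells with P2rx2, 35.0% were Rorb-high and 30.6% had Irx2, against 14.1% of all cells for each set. The sets differ in dissection: 16 of the Rorb-high and 5 of the Irx2 cells came from pDR, against 90 of the Trh cells and 134 of those with Gad and no Slc17a8. Within all DR alone, P2rx2 was read in 43.2% of Rorb-high, 34.6% of Irx2, 26.4% of Npas3 with Htr1d and 13.2% of Crhr2 with Npy2r cells. There it was in 1 of 35 Trh cells, 2.86% (0.072 to 14.9), and in 4 of 68 cells with Gad and no Slc17a8, 5.88% (1.63 to 14.4).

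P2ry1, outside the Zeb2 cells without Piezo2, was most often read in cells with Crhr2 and Npy2r, receptors for corticotropin-releasing factor family peptides and neuropeptide Y, at 21.3% (15.3 to 28.4), and in cells with Gad and no Slc17a8, at 21.3% (15.9 to 27.6). The latter share was 25.4% (18.3 to 33.6) in pDR and 13.2% (6.23 to 23.6) in all DR. It was least often read in Zeb2 cells with Piezo2, at 0%, and in cells with Npas3 and Htr1d, at 5.56% (2.57 to 10.3). P2rx4 ranged from 43.6% in Zeb2 cells with Piezo2 to 81.1% (74.3 to 86.8) in cells with Crhr2 and Npy2r, and stood between 62.4 and 73.6% in the other 7 sets. P2rx5 was read in 13.5% of Rorb-high cells, 12.9% of Zeb2 cells with Piezo2, 12.2% of cells with Crhr2 and Npy2r and 11.9% of cells with Slc17a8 and no Gad, and in 4.00 to 6.25% of the sets for Irx2, Trh, Zeb2 without Piezo2, Npas3 with Htr1d and Gad without Slc17a8. Intervals of P2rx6 and Adora1 overlapped in all 9 sets.

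**Figure D4:**
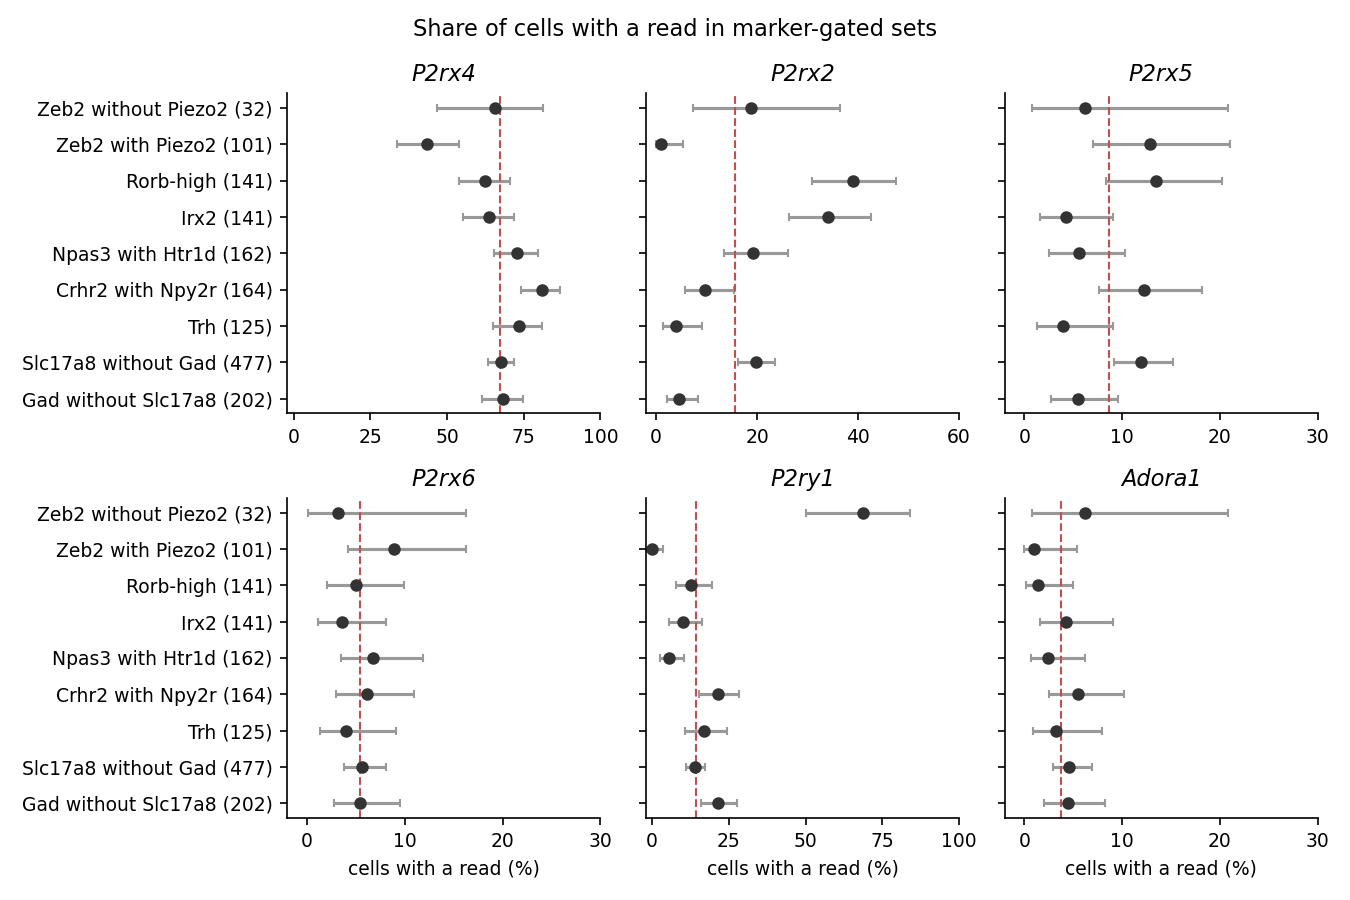
Share of cells with a read (x axis, percent, scales differ between panels) of 6 genes in 9 marker-gated sets (y axis, number of cells in brackets). Points are shares, bars are 95% Clopper-Pearson intervals of counting error and the dashed red line is the share over all 999 cells; P2ry1 reaches 68.8% in Zeb2 cells without Piezo2, P2rx2 is over 30% in the Rorb-high and Irx2 sets, and P2rx4 is lowest in Zeb2 cells with Piezo2.

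The other genes of purine signalling were 35 in number, all in the table, and 25 had a read in at least 3 cells. Among 11 other receptors, 6 passed that limit and 0 were in most cells. The most often read was P2ry14, a receptor for UDP-sugars, in 428 cells, 23.8% of pDR and 50.6% of all DR, followed by P2rx3, a P2X subunit of sensory neurons, in 62 cells, and P2ry2, a receptor for ATP and UTP, in 47. P2ry12, P2ry13 and P2rx7 were read in 14, 6 and 16 cells. P2ry14 was the 1 gene of the 25 called between dissections (-1.16, lower in pDR, as were 0.901% of all genes). P2ry2 was the 1 gene called for Rorb, where 0.455% of all genes were higher (3.08 CPM in Rorb-high and 0.381 CPM in other cells, 1.56).

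Of 10 ectonucleotidase genes, which encode enzymes that split extracellular nucleotides, 9 passed the limit. Enpp2, also known as autotaxin, was read in 58.6% of cells, Entpd3 in 57.3% and Entpd2 in 5.31%. Nt5e, the enzyme that makes adenosine from AMP, was read in 23 cells. Of 9 genes of adenosine uptake and breakdown 7 passed, led by Slc29a4 in 97.3% of cells, a monoamine and adenosine transporter, adenosine kinase Adk in 95.5% and the equilibrative nucleoside transporter Slc29a1 in 82.3%. Of 5 genes of ATP release 3 passed, with Panx1 in 94.5%, Panx2 in 78.3% and Calhm2 in 6.01% of cells. The vesicular nucleotide transporter Slc17a9 was read in 1 cell.

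For Zeb2, 3 of the 25 genes were called higher and 1 lower (1.66 and 2.9% of all genes), with a median contrast of 0.01. Enpp2 was at 58.4 CPM in Zeb2-positive and 14.4 CPM in Zeb2-negative cells (1.95), Entpd2 at 2.50 and 0.138 CPM (1.62) and P2ry14, at the threshold, at 14.4 and 6.71 CPM (1.00), while Slc29a1 was at 11.9 and 52.7 CPM (-2.06). Within Zeb2 cells, where 3.82% of all genes were called higher without Piezo2 and 2.34% lower, 1 of the 25 was called higher, Entpd3 at 16.1 and 3.78 CPM (1.83). There were 3 called lower, Entpd2 at 0.162 and 3.59 CPM (-1.98), Calhm2 at 0.625 and 3.50 CPM (-1.47) and Panx1 at 29.7 and 72.0 CPM (-1.25). For Slc17a8 and for Gad, 0 of the 25 were called in either dissection, and few genes of any kind were. For Slc17a8, 0.274% of all genes were called higher and 0.65% lower in all DR, and 0.768 and 0.721% in pDR. For Gad these shares were 0.729 and 0.161% in all DR, and 1.22 and 0.776% in pDR. At such shares a count of 0 says little about the 25 genes.

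Markers of other cells were counted beside the receptors, since glia also make several of them. The 7 microglial genes C1qa, C1qb, C1qc, Cx3cr1, Csf1r, Tmem119 and Ctss were read in 2 to 10 cells each. Of 6 astrocyte genes the most abundant was Slc1a2 (571 cells, 17.9 CPM), and the list had medians of 3.49 CPM with and 8.30 CPM without P2ry1, 6.47 and 8.55 CPM for P2rx4 and 1.75 and 7.05 CPM for Adora1. Its median was higher in cells with than without 4 members, at 9.80 and 6.31 CPM for P2rx2, 20.1 and 5.97 CPM for P2rx5, 13.4 and 6.59 CPM for P2rx6 and, in 6 cells, 47.2 and 6.59 CPM for Adora2b. The astrocyte mean was lower with P2rx2 (19.4 and 23.3 CPM), near even for P2rx6 (22.6 and 22.7 CPM) and higher with P2rx5 (24.5 and 22.5 CPM). It was also higher with Adora2b (41.6 and 22.6 CPM) and lower with P2ry1, P2rx4 and Adora1. By dissection the astrocyte list was lower in pDR, as P2rx2 was, at medians of 2.53 CPM in pDR and 9.02 CPM in all DR and means of 20.7 and 23.5 CPM. Of 6 oligodendrocyte genes the most abundant was Mbp (744 cells, 115.1 CPM), and the list was at medians of 30.9 and 23.2 CPM with and without P2ry1, 25.7 and 23.9 CPM for P2rx2 and 26.3 and 20.9 CPM for P2rx4. Its means ran the other way, at 82.0 and 177 CPM for P2ry1, 109 and 174 CPM for P2rx2 and 89.8 and 315 CPM for P2rx4. The oligodendrocyte mean was also lower with P2rx5, at 85.1 and 171 CPM, but higher with Adora1 (469 and 152 CPM), P2rx6 (299.9 and 156 CPM) and Adora2b (330.3 and 163 CPM). By dissection the oligodendrocyte median was 25.3 CPM in pDR and 24.1 CPM in all DR, and its mean 67.6 and 203 CPM. The defining oligodendrocyte gene Mog was read in 13 cells. Of the endothelial genes Cdh5 had 0 reads, while Cldn5, Pecam1 and Flt1 were read in 2, 8 and 7 cells. Of the ependymal genes Tmem212 had 0 reads, while Foxj1 was read in 36 cells and Ccdc153 in 2. The 3 precursor genes Pdgfra, Cspg4 and Olig2 were in 5 to 7 cells each. The part of such RNA in the receptor values was not tested.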

How the data were processed

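Single tdTomato-positive cells were sequenced by Smart-seq2. The authors aligned reads to mm10 with STAR 2.6.1a after bcl2fastq 2.19.0.316, counted them without strand with HTSeq 0.11.2, removed genes of the Y chromosome, kept cells over 50000 reads and 300 genes, and deposited CPM (each gene's reads scaled to a common total per cell) for 999 cells. Doublet removal is not given in the sources used here, and no doublet caller was run. Of 1536 labelled cells, 537 were not analysed here. Cells were mapped to dissection and plate by their labels.

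In each cell every deposited CPM value was a whole multiple of the smallest (100% within 0.001), so reads were recovered. No count test was run: each dissection comes from several brains, but the labels tie no cell to a brain, so each counted as 1 sample. Contrasts are the log2 of mean CPM plus 1 in one set of cells over another, computed for all 25522 genes with a read in at least 3 cells. They were called at 2-fold and repeated within plates holding at least 3 cells in both sets. Shares have Clopper-Pearson intervals, depth was equalized by thinning to 250000 reads, and a count of 0 allows up to 3. The members, marker gates and gene lists were chosen with earlier results of these data known, among them that P2ry1 led a small group of cells. Named genes are the members, gate genes, serotonin markers, purine genes past 2-fold or among the 3 most often read of their list, and the most abundant and the unread markers of other cells. The other markers of other cell types, the overlapping genes, P2ry12, P2ry13, P2rx7, Nt5e and Slc17a9 were named after their values were seen. A further gene of the microglial list, and the summed level of that list, are not reported here. Alternatives changed the pseudocount, marker thresholds, plate weights, scaling and depth, and left out each plate. Coordinates and exon lengths are from GENCODE M21 (GRCm38), and promoters from RefSeq on GRCm38.p6. Python 3.11.15, NumPy 2.4.6, SciPy 1.17.1, pandas 2.3.3 and matplotlib 3.10.9 were used.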

Additional observations from a re-analysis of the deposited data

How the results depend on the processing

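The number of the 7 members past 2-fold was from 0 to 3 in the comparisons as reported and moved with the pseudocount, in place of 1 CPM. At 0.1 CPM it was 2 for Rorb (1 as reported), 3 for Slc17a8 in all DR (1), 4 for Slc17a8 in pDR (0), 4 for Gad in pDR (0) and 4 for Piezo2 within Zeb2 cells (3), where 7.29, 5.81, 10.2, 11.5 and 19.8% of all genes were past 2-fold in either direction. At 5 CPM it was 0 between dissections, for Rorb, for Slc17a8 in all DR and for Gad in all DR (1 each), 1 for Zeb2 (2) and 1 for Piezo2 within Zeb2 cells (3), where 0.944, 0.298, 0.263, 0.165, 1.85 and 1.93% of all genes were. With plates weighted equally it was 0 for Slc17a8 in all DR, 1 for Slc17a8 in pDR and 2 for Gad in pDR (0.976, 2.05 and 2.38% of all genes). Thinning gave 0 for Rorb and 0 for Slc17a8 in all DR (1.16 and 0.819%), and a Rorb threshold of 200 CPM or of 1 read gave 2 (4.02 and 1.42%). Without the 20 most abundant genes Slc17a8 in pDR gave 2 (1.93%), and with positives from 10 CPM 1 (1.65%).

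Without single plates the count ranged from 0 to 2 for Rorb (0 without SER50, SER51 or SER55, 2 without SER60), from 0 to 1 for Slc17a8 in all DR (0 without SER48, SER52 or SER63), from 0 to 2 for Slc17a8 in pDR (2 without SER12), from 0 to 1 for Gad in all DR (0 without SER51 or SER57), from 0 to 2 for Gad in pDR (1 without SER12, 2 without SER13) and from 2 to 4 for Piezo2 within Zeb2 cells (2 without SER50, 4 without SER55). The share of all genes past 2-fold then ran from 0.964 to 1.31%, 0.733 to 1.04%, 1.48 to 2.06%, 0.694 to 0.991%, 2.03 to 2.63% and 6.16 to 7.40% in these comparisons. These alternatives were chosen after seeing the data: without Rorb-high and Irx2 cells the count between dissections was 2 (2.39% of all genes), without the 32 Zeb2 cells lacking Piezo2 it was 0 for Slc17a8 in all DR and 2 for Gad in all DR (0.878 and 0.940%), and without cells with a read of Zeb2 it was 0 and 2 (1.18 and 1.30%).

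P2ry1 contrasts reversed when the Zeb2 cells lacking Piezo2 were left out, to -1.53 for Zeb2 and -0.17 for Slc17a8 in all DR, and to -0.15 for Slc17a8 without any cell with Zeb2. By construction these settings remove the cells that carried 50.3% of summed P2ry1. The P2rx2 contrast between dissections kept its sign under all alternatives run, from -2.68 to -0.73, and without single plates stood from -1.81 to -1.66. Counting a cell from 5 reads rather than 1 put P2rx6 at 0% of pDR and 0.564% of all DR cells. Requiring a read in at least 50 cells moved the share of all genes called higher in pDR from 1.54 to 2.43%, and no filter to 0.738%. At this depth Adora2a, Adora2b, Adora1 and P2rx6 cannot be called absent from a cell in which they were not read.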
